A study of Mus musculus with 6 samples.

Results

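R-spondins, their Lgr receptors, the ubiquitin ligases they act on and a set of crypt stem cell targets were followed in colorectal tissue of colitis mice. They are 10 genes, Rspo1, Rspo2, Rspo3, Lgr4, Lgr5, Rnf43, Znrf3, Ascl2, Axin2 and Smoc2, taken by symbol from a table of 18268 genes, and all 10 were in it. The tissue came from adult male C57BL/6 mice all of which drank dextran sulfate sodium (DSS), a polymer that damages the colonic lining, for 7 days. By gavage for 6 days, 3 of them received berberine (BBR), an alkaloid from plants, and 3 received sulfasalazine (SASP), an aminosalicylate drug. RNA was sequenced from whole tissue, and levels are fragments scaled to transcript length and library size (FPKM). Mice without DSS and colitis mice without a drug were not analysed here, so each difference is between the drugs. Where 3 values of a drug are given, they stand in the order of mice 1, 2 and 3, and equal numbers in the groups do not pair mice.

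R-spondins are secreted proteins, made largely by stromal cells under the crypts, that raise the sensitivity of epithelial cells to Wnt. They bind Lgr receptors and draw in Rnf43 and Znrf3, membrane ligases that otherwise mark Frizzled receptors for removal. Where Frizzled receptors stay on the surface, β-catenin builds up and turns on target genes, among them the ligase genes themselves, Axin2, and the stem cell genes Lgr5 and Ascl2. In the gut, Lgr5 marks the dividing stem cells at the crypt base, which renew the epithelium.

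The libraries were alike in depth, with an estimated 16400000 to 18200000 reads each. BBR mouse 3 stood apart from its group. Across the tested genes its log2 values correlated at 0.953 and 0.949 with those of BBR mice 1 and 2, which correlated at 0.987 with each other. The labelled tissue was checked with its markers. All 10 epithelial markers were above 0 in each mouse and summed to 7893 to 8510 FPKM under BBR and 7897 to 8842 FPKM under SASP. The stromal markers, 11 of 11 above 0, summed to 345 to 473 FPKM under BBR and 170 to 283 FPKM under SASP. The 10 smooth muscle markers, also all above 0, summed to 3230, 3478 and 7478 FPKM under BBR and to 894, 2670 and 1999 FPKM under SASP. Muscle and stroma sums were thus higher in each BBR than in each SASP mouse, with the highest muscle sum in BBR mouse 3. Leukocyte markers, of which 1 of 10 was listed at 0 in a mouse, summed to 302 to 624 FPKM under BBR and 464 to 628 FPKM under SASP. Most of each sum was Ly6g, at 232, 190 and 552 FPKM under BBR and 329, 505 and 417 FPKM under SASP. The mean log2(FPKM + 1) of the 10 leukocyte markers weighs them evenly. It was 2.52, 2.66 and 2.38 under BBR and 3.18, 2.86 and 3.03 under SASP, lower in each BBR mouse. In whole tissue, fewer cells of a type and less RNA per cell cannot be told apart.

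The 10 genes spanned a wide range of levels, and the range lay mostly between genes and not between drugs. Since FPKM are per length of transcript, levels can be set beside each other. Lgr4 was far above the rest, at 68.9 to 92.0 FPKM over the 6 mice, with a median of 77.2 FPKM, and its range did not meet that of the next gene. Smoc2 (median 5.6 FPKM) and Rnf43 (5.5 FPKM) came next and did not differ beyond their spread, Smoc2 being the higher in 4 of 6 mice. Rspo3 (2.83 FPKM), Axin2 (2.07 FPKM) and Znrf3 (1.5 FPKM) followed. Their ranges overlapped, although each was above the next in 5 of 6 mice. The remaining genes were below 1 FPKM in each mouse, with medians of 0.53 FPKM for Ascl2, 0.33 FPKM for Lgr5, 0.15 FPKM for Rspo2 and 0.14 FPKM for Rspo1. Ascl2 and Lgr5 could not be ordered, with Ascl2 above Lgr5 in 3 of 6 mice, nor could Rspo2 and Rspo1. These levels rest on few reads. On the estimated depth and the longest annotated transcript, Lgr5 was covered by about 4 to 41 reads, Ascl2 by 0 to 23 and Rspo1 by 2 to 9, where Lgr4 had about 5860 to 7730. For Ascl2, 3 reads correspond to 0.111 FPKM, and for Lgr5 to 0.0373 FPKM.

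**Figure D1:**
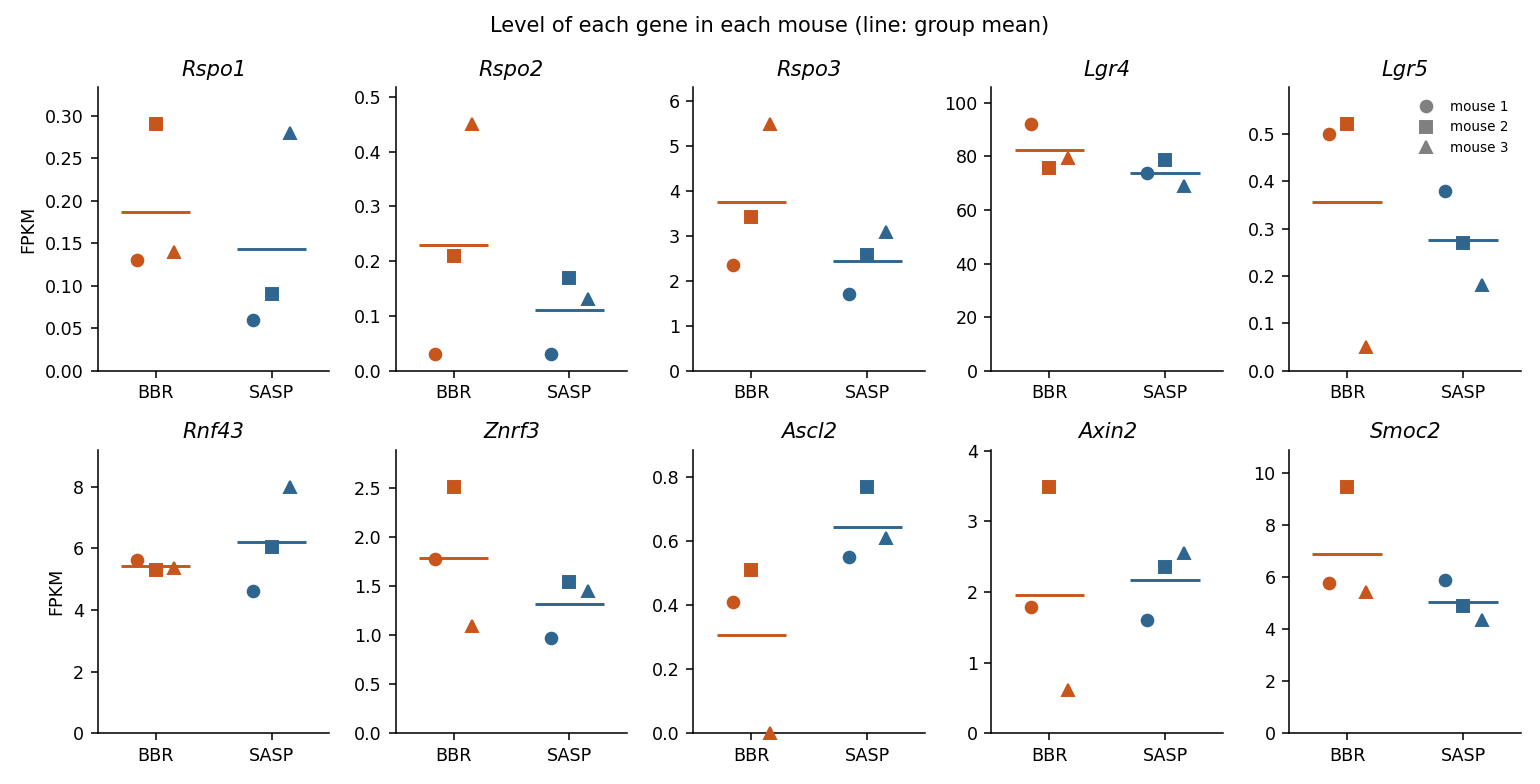
FPKM of each of the 10 genes (vertical axes, each starting at 0) in the 3 BBR and 3 SASP mice, with lines at group means and marker shapes for the mouse number, which pairs no mice. The groups overlap in each panel but that of Ascl2, where the 3 SASP values lie above the BBR values, and BBR mouse 3 has the lowest value for Lgr5, Ascl2 and Axin2.

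Of the R-spondin ligands, Rspo3 (NCBI gene 72780), known from stromal and lymphatic cells below the crypts, was the main one. It made up 87.2% to 95% of the summed FPKM of Rspo1, Rspo2, Rspo3 and Rspo4 in each mouse. Rspo3 was at 2.35, 3.42 and 5.49 FPKM under BBR and at 1.70, 2.57 and 3.08 FPKM under SASP. BBR mouse 3 was the highest of all, and the other values of the groups overlapped. The means were 3.75 ± 1.60 FPKM under BBR and 2.45 ± 0.698 FPKM under SASP (SD, n = 3 each). On the log2(FPKM + 1) scale the difference was 0.43 (SE 0.27, 95% interval -0.22 to 1.07, limma adjusted p = 0.309), which did not pass the threshold of 0.05. Without BBR mouse 3, the mouse with the most smooth muscle RNA, it was 0.18 (limma adjusted p = 0.542), and with the smooth muscle level as a covariate it was -0.21 (limma adjusted p = 0.707).

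Rspo1 and Rspo2 were barely detected. Rspo1 was at 0.13, 0.29 and 0.14 FPKM under BBR and 0.06, 0.09 and 0.28 FPKM under SASP. Rspo2 was at 0.03, 0.21 and 0.45 FPKM under BBR and 0.03, 0.17 and 0.13 FPKM under SASP. The groups overlapped for both ligands, and the lowest values, such as Rspo2 in BBR mouse 1 and SASP mouse 1, stand for about 2 reads. Rspo4 was listed at 0 in 5 of 6 mice and at 0.04 FPKM in SASP mouse 2. At this depth a difference in these ligands was not detectable.

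Lgr4 (107515), the R-spondin receptor found broadly in epithelia, was the best measured of the genes. It was at 92.0, 75.7 and 79.4 FPKM under BBR and at 73.7, 78.7 and 68.9 FPKM under SASP. BBR mouse 1 was the highest, and SASP mouse 2 lay above BBR mouse 2. The means, 82.4 ± 8.57 and 73.7 ± 4.89 FPKM (SD, n = 3 each), differed by 0.15 on the log2 scale (SE 0.11, 95% interval -0.11 to 0.42, limma adjusted p = 0.367). In this fit the interval spans a fall of 0.11 to a rise of 0.42 under BBR, and it moved with the processing. It was -0.30 to 0.34 with median-ratio scaling, -0.06 to 0.47 with quantile normalization and 0.18 to 0.51 with array quality weights.

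Lgr5 (14160), the receptor that marks crypt base stem cells, was at 0.50, 0.52 and 0.05 FPKM under BBR and at 0.38, 0.27 and 0.18 FPKM under SASP. BBR mice 1 and 2 were the highest of the 6 and BBR mouse 3 was the lowest, so that the groups overlapped. The means were 0.357 ± 0.266 and 0.277 ± 0.10 FPKM (SD, n = 3 each). Lgr5 lay below the filter of 1 FPKM in at least 3 mice. In a fit of all genes with no filter it differed by 0.07 (SE 0.15, 95% interval -0.30 to 0.44, limma adjusted p = 0.789). When BBR mouse 3 was left out as well, the difference was 0.25 (SE 0.079, limma adjusted p = 0.0872), still short of the threshold, and the remaining groups no longer overlapped. In that set of 5 mice 65.2% of the tested genes had groups that did not overlap. Lgr6, the other receptor of the family, was at 0.02 to 0.08 FPKM. Lgr4 exceeded Lgr5 by 146-fold to 383-fold in the mice other than BBR mouse 3, and by 1588-fold in that mouse, where Lgr5 rests on about 4 reads.

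The ligase genes, whose products remove Frizzled receptors, were both measured above the filter. Rnf43 (207742) was at 5.62, 5.29 and 5.38 FPKM under BBR and at 4.62, 6.05 and 8 FPKM under SASP. The BBR values were tightly grouped and lay inside the SASP range. The difference was -0.14 (SE 0.18, 95% interval -0.58 to 0.29, limma adjusted p = 0.617), and it became 0.03 without SASP mouse 3. Znrf3 (407821) was at 1.77, 2.51 and 1.09 FPKM under BBR and at 0.97, 1.54 and 1.45 FPKM under SASP. BBR mice 1 and 2 were above all SASP mice, whereas BBR mouse 3 was not. The difference of Znrf3 was 0.24 (SE 0.22, 95% interval -0.28 to 0.76, limma adjusted p = 0.469), and 0.44 without BBR mouse 3 (limma adjusted p = 0.117). Rnf43 was above Znrf3 in each mouse, by 2.11-fold to 5.52-fold.

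Ascl2 (17173), a transcription factor of the intestinal stem cell state, was the gene of the 10 whose groups did not overlap. BBR mice 1 and 2 had 0.41 and 0.51 FPKM, and it was listed at 0 in BBR mouse 3. The SASP mice had 0.55, 0.77 and 0.61 FPKM. All BBR values lay below all SASP values, but the gap between BBR mouse 2 and SASP mouse 1 was 13 against 16 estimated reads. Groups did not overlap in 30.7% of all genes in the table, so that 1 of 10 is not above the background. Among tested genes it was 37.9%, with 21.3% higher and 16.6% lower under BBR, and 0 of the 6 tested members. The difference was -0.35 in the fit with no filter (SE 0.16, 95% interval -0.73 to 0.033, limma adjusted p = 0.223) and -0.17 without BBR mouse 3 (limma adjusted p = 0.220).

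Axin2 (12006), a scaffold of the β-catenin destruction complex and a broad read-out of Wnt activity, was spread widely among BBR mice. It was at 1.79, 3.49 and 0.61 FPKM under BBR and at 1.61, 2.35 and 2.56 FPKM under SASP. The highest and the lowest value were both in the BBR group, and the SASP values lay between them. The means were 1.96 ± 1.45 and 2.17 ± 0.499 FPKM (SD, n = 3 each), a log2 difference of -0.21 (SE 0.36, 95% interval -1.06 to 0.64, limma adjusted p = 0.711). It turned to 0.17 without BBR mouse 3 (limma adjusted p = 0.603), so that no direction can be given for Axin2.

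Ascl2 and Axin2 are both transcribed under β-catenin and TCF factors. Both were lowest in BBR mouse 3, as were 25.0% of all genes in the table and 34.0% of tested genes. As a description, the 250 bases before their annotated starts are shown, 5′ to 3′ on the strand of the gene, from RefSeq on GRCm38.p6. This is a later build than the mm9 named for the deposited values. The Ascl2 stretch is chr7:142969265-142969514 on the minus strand, and the Axin2 stretch is chr11:108920099-108920348 on the plus strand.
Ascl2: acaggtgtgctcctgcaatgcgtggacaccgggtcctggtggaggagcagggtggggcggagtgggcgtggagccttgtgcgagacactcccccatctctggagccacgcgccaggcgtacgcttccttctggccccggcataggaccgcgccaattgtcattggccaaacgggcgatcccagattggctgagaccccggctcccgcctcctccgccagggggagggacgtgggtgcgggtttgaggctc
Axin2: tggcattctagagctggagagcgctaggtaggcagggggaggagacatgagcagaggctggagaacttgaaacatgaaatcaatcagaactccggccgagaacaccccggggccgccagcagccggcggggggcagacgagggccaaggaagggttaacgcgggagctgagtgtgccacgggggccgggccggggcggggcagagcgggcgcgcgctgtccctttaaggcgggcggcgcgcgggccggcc
No base is in capitals, because none of the searched motifs of TCF factors was found. ATCAAAG was searched on both strands, as was its variant with a changed first base, TTCAAAG, in windows that also take in the 50 bases after the start. The core that both hold and so overlap in, CAAAG, was added after the first search. The motifs stand in 3.73%, 5.14% and 53.9% of the 32851 windows of that length. Windows were held for 5 of the 10 genes, namely Rspo1, Lgr4, Rnf43 (which has a pair of starts), Ascl2 and Axin2, and the 6 windows had 0 matches. Lgr5, Rspo2, Rspo3, Znrf3 and Smoc2 had no entry. The absence covers these windows only. The Axin2 and Ascl2 windows were 70.0% and 67.0% G and C, against a median of 52.7% over all windows.

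Smoc2 (64074), a secreted calcium-binding matrix protein that is enriched in crypt stem cells and also made by fibroblasts, was at 5.77, 9.46 and 5.43 FPKM under BBR and at 5.89, 4.88 and 4.33 FPKM under SASP. BBR mouse 2 was well above the rest, and SASP mouse 1 lay above BBR mice 1 and 3. The means were 6.89 ± 2.24 and 5.03 ± 0.791 FPKM (SD, n = 3 each). Smoc2 had the smallest p-value of the tested members, with a log2 difference of 0.36 (SE 0.22, 95% interval -0.15 to 0.87, limma adjusted p = 0.283). Without BBR mouse 2 it was 0.14.

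Over all members, 6 of 10 passed the filter and 0 of these 6 passed the threshold in limma, where 8.86% of the 12072 tested genes did, 3.82% as higher and 5.04% as lower under BBR. At an unadjusted p of at most 0.05 the count was also 0, where 3837 of the 12072 tested genes passed. With no filter the count was 0 of 10, where 3.33% of the 18260 genes tested were called. Without BBR mouse 3 it was 0 as well, where 33.8% of tested genes passed. With array quality weights Lgr4 and Smoc2 passed, in a fit that called 7126 of the 12072 tested genes. The log2 fold change was above 0 in 4 of the 6 genes, namely Rspo3, Smoc2, Znrf3 and Lgr4, and below 0 in Rnf43 and Axin2. Among all tested genes 60.8% were above 0. The median of the 6 was 0.20, and that of all tested genes was 0.10. With so few genes and such spread, this does not show that the drugs act alike on the pathway. The 95% intervals reached 1.07 for Rspo3 and -1.06 for Axin2, so that changes of about that size lie within them. These bounds are on the log2(FPKM + 1) scale, which understates changes of low genes. With a pseudocount of 0.1 they reached 1.39 for Rspo3 and -1.74 for Axin2.

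**Figure D2:**
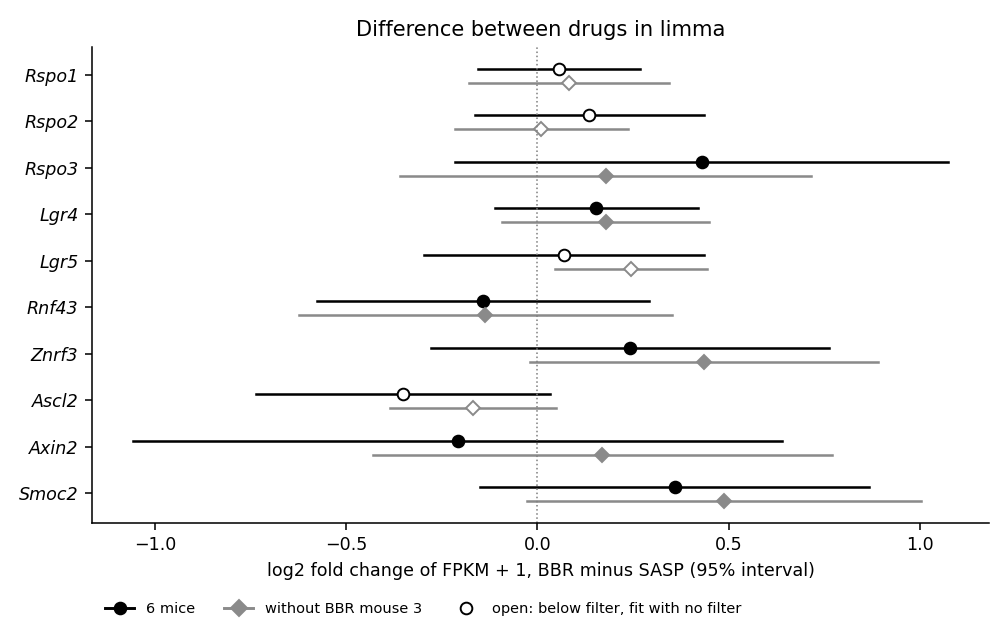
Log2 fold change of FPKM + 1 (horizontal axis, BBR minus SASP) with its 95% interval from limma for each gene, with 6 mice (black circles) and without BBR mouse 3 (grey diamonds). Open markers are genes below the filter, fitted with no filter. With 6 mice all 10 intervals cross 0, and without BBR mouse 3 that of Lgr5 lies above 0, at an adjusted p of 0.0872.

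Because the levels of muscle and stromal markers differed between the libraries, each gene was also set against markers of the compartment it is best known from. The mean log2(FPKM + 1) of the 10 epithelial markers was higher by 0.15 in BBR mice, and that of the 11 stromal markers by 0.71. Against the epithelial mean, Lgr4 was at -2.25, -2.36 and -2.33 with BBR and -2.40, -2.20 and -2.37 in SASP mice, a log2 difference of 0.0096 (exact permutation test, two-sided p = 0.90). SASP mouse 2 was the highest and SASP mouse 1 the lowest, with the BBR mice between them. The value depends on the reference, since against the median of the same markers it was 0.34 (exact permutation p = 0.20). The differences of Lgr5, Rnf43, Znrf3, Axin2 and Smoc2 against the same mean were -0.07, -0.29, 0.10, -0.35 and 0.21 (exact permutation p = 0.80, 0.40, 0.90, 0.60 and 0.70). Ascl2 differed by -0.50, with groups that did not overlap (exact permutation p = 0.10). Against the median of the markers it differed by -0.16 (exact permutation p = 0.50), and with a pseudocount of 0.1 by -1.39 (exact permutation p = 0.10). An exact test of 3 against 3 mice cannot go below 0.10, so none of these values could pass 0.05.

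The ligands were set against the stromal mean in the same way. Rspo3 was at -2.64, -2.61 and -1.82 in BBR mice and at -2.03, -2.26 and -1.95 in SASP mice, a log2 difference of -0.28 (exact permutation p = 0.40). BBR mice 1 and 2 were the lowest and BBR mouse 3 the highest. Rspo1 and Rspo2 differed by -0.65 and -0.57 (exact permutation p = 0.10 for both), with no overlap of the groups. Their own levels were near 0 in all mice while the stromal mean differed by 0.71, so that the pseudocount of 1 largely sets these values. With a pseudocount of 0.1 they were -0.46 and -0.27 (exact permutation p = 0.20 and 0.70). Smoc2 differed by -0.35 against the stromal mean (exact permutation p = 0.40), the opposite sign to that against the epithelial mean. With the smooth muscle level as a covariate, in a fit of all genes, Smoc2 was at 0.64 (limma adjusted p = 0.352), against 0.36 without it, while Rspo3 turned to the negative value given above.

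**Figure D3:**
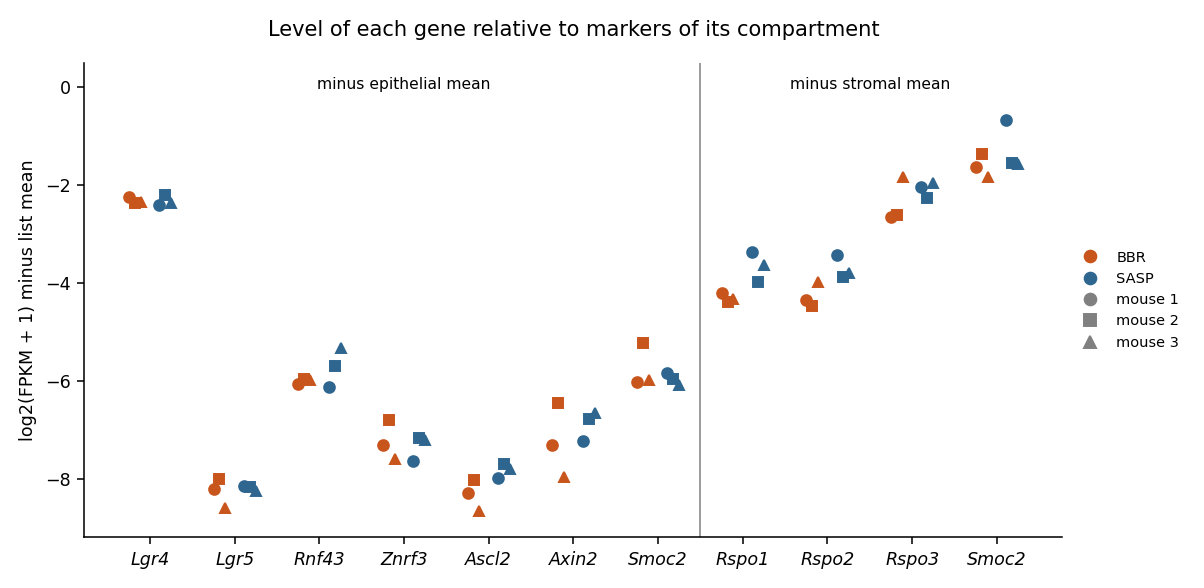
Log2(FPKM + 1) of each gene minus the mean of the epithelial markers (left) or stromal markers (right) in each mouse, with the drug in colour and the mouse number as shape. The groups do not overlap for Ascl2 on the left and for Rspo1 and Rspo2 on the right, where the pseudocount of 1 largely sets the values, and Smoc2 is shown against both means.

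BBR mouse 3 had the lowest value of the 6 mice in 3 of the 10 members, Lgr5, Ascl2 and Axin2, and the highest in a pair of them, Rspo2 and Rspo3. The same mouse was the lowest in 34.0% of tested genes and in 25.0% of all genes in the table, and the highest in 14% of tested genes, shares close to those of the members. It also had the lowest proliferation markers, with a sum of 75.8 FPKM over the 12 genes against 128 and 140 FPKM in the other BBR mice and 268 to 351 FPKM under SASP. Its smooth muscle sum, given above, was the highest. Between the drugs, proliferation markers were lower in BBR mice in 12 of 12 genes, of which 8 passed the threshold in limma, with a median log2 difference of -1.55. Of all tested genes 5.04% passed as lower under BBR. Pcna, the sliding clamp of DNA synthesis, fell by 1.07 (limma adjusted p = 0.0111), and Mcm3, part of the replicative helicase, by 1.87 (limma adjusted p = 0.0260). Of the members 0 passed.

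Among the other genes of the pathway some passed. Of 18 genes for Wnt secretion, Wnt receptors and their adaptors, 15 were tested, and 3 of these rose under BBR and 0 fell. Their median was 0.49 with 15 of 15 above 0, and 11 passed without BBR mouse 3. Of all tested genes 8.86% passed and 60.8% were above 0, and 33.8% passed without BBR mouse 3. Porcn, the enzyme that adds the lipid that Wnt proteins need, was at 3.47, 3.44 and 2.98 FPKM under BBR and at 0.94, 1.56 and 1.32 FPKM under SASP (a difference of 0.93 with SE 0.15, limma adjusted p = 0.0205). Dvl1, an adaptor behind Frizzled, rose by 0.52 (limma adjusted p = 0.0483), and so did Wls, the carrier of Wnt proteins in secretion, by 0.58 (limma adjusted p = 0.0489). Wls is named because it completes the 3 and was chosen after its values were seen. With the smooth muscle covariate, Porcn, Dvl1 and Wls were at 0.79, 0.50 and 0.37 (limma adjusted p = 0.219, 0.292 and 0.374). The Dvl1 and Wls calls, both close to the threshold, were also lost with no filter, at a minimum of 0.5 FPKM and with no mean-variance trend. The Wls call was lost with either other pseudocount and with median-ratio scaling as well. Of 12 genes of the destruction complex, which holds β-catenin in check, 0 of 12 passed the threshold in limma, with a median of 0.11. Csnk1e came nearest at 0.78 (limma adjusted p = 0.0740). Without BBR mouse 3, 2 genes of the complex passed.

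Other Wnt targets and other genes of the stem cell signature went both ways. Of 17 further targets, 10 were tested, of which 1 rose and 2 fell, with a median of 0.22. The shares of all tested genes that passed were 3.82% as higher and 5.04% as lower. Ccnd1, a cyclin that drives entry into the cell cycle, was at 11.1, 12.2 and 8.65 FPKM under BBR and at 34.9, 41.3 and 41.7 FPKM under SASP, a log2 difference of -1.80 (SE 0.15, limma adjusted p = 0.00245). Its call held in each fit that left out a mouse. With the smooth muscle covariate the difference was -1.79 (limma adjusted p = 0.0680), about as large. Myc, a transcription factor of growth, fell by 0.87 (limma adjusted p = 0.0230). Ccnd1 and Myc are also induced by many growth and cytokine signals. Sox9, a transcription factor of crypt progenitors, rose by 0.77 (limma adjusted p = 0.0279). Among 15 genes of the stem cell signature beside the members, 12 were tested. Sox9 rose, Cdca7, a gene of dividing progenitors, fell by 0.90 (limma adjusted p = 0.0247), and the other 10 did not pass. Olfm4, a stem cell marker of the small intestine, was at 0 to 0.06 FPKM.

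Genes of the crypt base niche were mostly higher under BBR, as was the stroma at large. Of 15 genes of crypt base stroma, 11 were tested and 11 were above 0, against 60.8% of all tested genes, with a median of 0.60. Ackr4, a chemokine scavenger of submucosal stroma, rose by 1.03 (limma adjusted p = 0.0260) and was the single call. With 6 mice 3.82% of all tested genes passed as higher. Without BBR mouse 3, 3 genes of this list passed, where 33.8% of all tested genes did. The 11 general stromal genes were all above 0 as well, with a median of 0.68, and 4 rose (8 passed without BBR mouse 3), among them Lum by 1.32 (limma adjusted p = 0.0444), Thy1 by 0.84 (limma adjusted p = 0.0399) and Col3a1 by 0.85 (limma adjusted p = 0.0410). Rspo3, at 0.43, lay below both medians. Of 6 lymphatic endothelial genes, another source of Rspo3, 4 were tested and 0 passed in limma, with a median of 0.65. The 10 smooth muscle genes had a median of 1.24 and 0 calls. The epithelial markers had a median of 0.030, with Krt18 and Cdx2 past the threshold as higher and Vil1 as lower.

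Most of these calls were lost in some of the fits that left out 1 mouse. Followed were 17 called genes, namely Porcn, Dvl1, Wls, Ccnd1, Myc, Sox9, Cdca7, Ackr4, Krt7, Lum, Thy1, Cdx2, Krt18, Vil1, Col3a1, Mcm3 and Pcna. Without any 1 of BBR mouse 1, SASP mouse 1 and SASP mouse 3, 16 of the 17 calls were lost, Ccnd1 being the one kept. Without BBR mouse 2 it was 12, without SASP mouse 2 it was 8, and without BBR mouse 3 it was 0. The calls over all tested genes moved too, from 1069 to 131 without BBR mouse 1, 59 without SASP mouse 1 and 51 without SASP mouse 3. They were 371 without BBR mouse 2, 405 without SASP mouse 2 and 4018 without BBR mouse 3. With no filter 9 of the 17 were lost, and with the smooth muscle covariate all 17. The differences kept their sign throughout. With the covariate Mcm3 was at -1.63 and Pcna at -0.92, somewhat smaller than without it. Cdca7, at -0.91, and Sox9, at 0.77, were about the same. Myc, at -1.13, Krt18, at 0.89, and Krt7, at 0.69, were larger. Those of Lum, at 0.52, Thy1, at 0.44, Col3a1, at 0.54, Ackr4, at 0.77, Cdx2, at 1.21, and Vil1, at -0.43, were smaller with it. Porcn, Dvl1, Wls and Ccnd1 are given above.

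**Figure D4:**
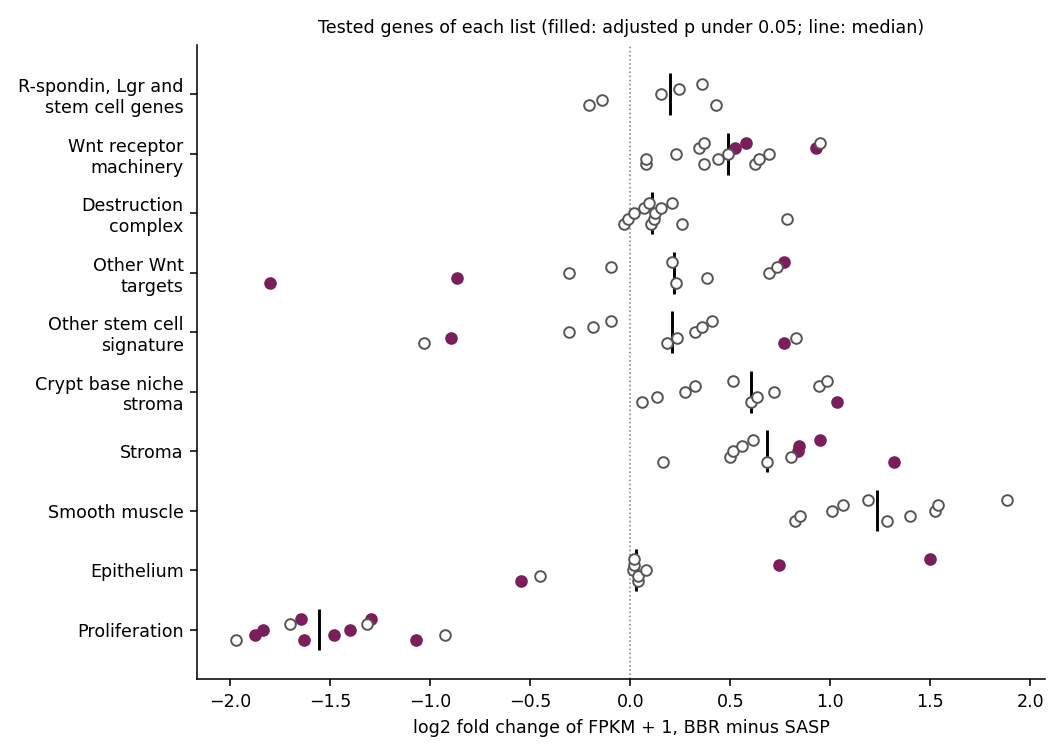
Log2 fold change of FPKM + 1 (horizontal axis, BBR minus SASP) of each tested gene in 10 lists, filled where the limma adjusted p was under 0.05, with a line at the median of each list. The 6 tested members lie between -0.21 and 0.43 with no filled point, whereas proliferation genes lie below 0 and muscle and stroma genes above it.

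The genes closest to Lgr5 and Smoc2 in their pattern over the 6 mice were sought as a description. Likeness was the root mean square difference of mean-centred log2(FPKM + 1). For Lgr5 the nearest tested genes were Fnbp1l, Fancc and Pigc, at 0.038, 0.041 and 0.042, where the values of Lgr5 itself had an SD of 0.21. Fnbp1l, for example, was at 24.2, 25.3 and 17.3 FPKM under BBR and 21.3, 21.1 and 18.8 FPKM under SASP, also lowest in BBR mouse 3. For Smoc2 they were LOC102633156, Il17rb and Anxa5, at 0.074, 0.076 and 0.089, with an SD of 0.33 for Smoc2. Il17rb, the receptor of IL-25 and IL-17B, was at 1.05, 1.82 and 1.00 FPKM under BBR and at 1.01, 0.77 and 0.69 FPKM under SASP, so that BBR mouse 2 was the highest here too. Over 6 mice many genes can come this close. For Lgr5, below 1 FPKM in each mouse, the pseudocount of 1 also shrinks the spread. Its FPKM differed 10.4-fold between the highest and the lowest mouse, on about 4 to 41 reads, whereas Fnbp1l ranged from 17.3 to 25.3 FPKM.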

How the data were processed

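Colorectal RNA of 3 colitis mice receiving BBR and 3 receiving SASP had been sequenced, with groups taken from the treatment labels. The authors filtered reads with SOAPnuke, aligned them with Bowtie2 2.2.5 and calculated FPKM values with RSEM 1.2.12, and the submitters' notes name mm9. The deposited FPKM have 2 decimals. The methods describe ribosomal RNA depletion and short single-end reads, and the labels an Illumina kit. The annotation is not given in the sources used here. No column of another sample was present.

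FPKM are not counts, so log2(FPKM + 1) was fitted in limma 3.58.1 (R 4.3.3) with a mean-variance trend, over genes with at least 1 FPKM in at least 3 of the 6 samples. P-values are two-sided with Benjamini-Hochberg adjustment over all tested genes and a threshold of 0.05. A log2 change on this scale understates that of low genes. The labels name no batch, so p-values measure the spread between these 6 samples. Ratios to markers were tested by exact permutation. The limma step was tested on simulated data.

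Depth was estimated from 31 to 56 genes per sample that were above 0 in that sample alone and had a longest GENCODE M21 transcript under 1500 bases, each taken as 1 read. Estimated reads are approximate and cover counting error only.

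The members and the gene lists were chosen with earlier results of these data known. Named were all 10 members, up to 2 genes with the smallest adjusted p under 0.05 from each other list, and the 3 genes most like Lgr5 and like the member with the smallest p. Rspo4, Lgr6, Csnk1e, Wls, Lum, Cdx2, Olfm4, Ly6a, Bmi1 and Hopx stand outside this rule and were named after their values were seen. The alternatives were other filters, pseudocounts, scalings, array weights, no trend, a smooth muscle covariate, an unadjusted threshold and leaving out each mouse.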

Additional observations from a re-analysis of the deposited data

How the results depend on the processing

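Of the members tested, which were 6 in most of the 16 alternatives, 7 at a minimum of 0.5 FPKM and 10 with no filter, 0 passed the threshold in 15 alternatives, among them the 6 fits that left out 1 mouse. With array quality weights 2 passed, Lgr4 at 0.35 (limma adjusted p = 0.00435) and Smoc2 at 0.35 (limma adjusted p = 0.0483), in a fit that gave BBR mouse 3 a weight of 0.13 and BBR mouse 1 a weight of 5.32. That fit called 7126 of the 12072 tested genes.

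The count over all genes, 1069, moved to 608 with no filter, 1737 with quantile normalization, 1684 with median-ratio scaling, 19 with the smooth muscle covariate and 3837 at an unadjusted p of at most 0.05, and from 51 (without SASP mouse 3) to 4018 (without BBR mouse 3) when 1 mouse was left out. Of the calls 43.1% were higher under BBR, against 29.6% with median-ratio scaling, which moved the median of all genes from 0.10 to -0.02, and 65.1% with array weights. Rspo3 turned negative with array weights (-0.14) and with the smooth muscle covariate (-0.21). The covariate moved Smoc2 to 0.64, Rnf43 to -0.39 and Axin2 to -0.0035, array weights moved Lgr4 to 0.35 and Rnf43 to -0.34, and median-ratio scaling moved Lgr4 to 0.022, Rnf43 to -0.25 and Znrf3 to 0.16. Quantile normalization moved Znrf3 to 0.095, Rnf43 to -0.24 and Axin2 to -0.32, and a pseudocount of 0.1 moved Axin2 to -0.40 and Znrf3 to 0.36. The cause was not tested.

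Over the fits that left out 1 mouse, Rnf43 ranged from -0.31 to 0.030, Axin2 from -0.57 to 0.17, and, with no filter (chosen after seeing the data), Rspo1 from -0.0055 to 0.14 and Lgr5 from -0.022 (-0.012 without BBR mouse 1) to 0.25, each changing sign. Rspo3, Lgr4, Znrf3 and Smoc2 stayed above 0 there, at 0.18 to 0.66, 0.073 to 0.21, 0.061 to 0.44 and 0.14 to 0.49, as did Rspo2 at 0.010 to 0.26, and Ascl2 stayed below it, at -0.47 to -0.17. Relative to the epithelial mean, Lgr4 ranged from -0.029 to 0.071, Lgr5 from -0.20 to 0.086, Znrf3 from -0.12 to 0.28, Rnf43 from -0.49 to -0.090, Axin2 from -0.75 to 0.011, Ascl2 from -0.65 to -0.33 and Smoc2 from -0.044 to 0.36. Relative to the stromal mean, Rspo1 ranged from -0.81 to -0.51, Rspo2 from -0.71 to -0.43, Rspo3 from -0.55 to -0.14 and Smoc2 from -0.50 to -0.056. Against the median of the epithelial markers Lgr5 was at 0.26 and Rnf43 at 0.045, and with a pseudocount of 0.1 Lgr4 was at -0.0042, signs opposite to those against the mean. That median also moved Lgr4 to 0.34, Znrf3 to 0.43, Smoc2 to 0.55, Axin2 to -0.022 and Ascl2 to -0.16, and the stromal median moved Rspo3 to -0.57 and Smoc2 to -0.65. The pseudocount of 0.1 moved Znrf3 to 0.20, Ascl2 to -1.39, Axin2 to -0.56 and, against stroma, Rspo2 to -0.27. No paired analysis was possible because the labels give the groups no shared replicate numbers. Depth limits Rspo1, Rspo2, Lgr5 and Ascl2 most, as each rests on at most about 41 reads per library.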

Other observations

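Genes that the injured epithelium uses in repair, which can take over where Lgr5 cells are lost, were also read. Of 10 such genes, 8 were tested, 1 rose and 0 fell under BBR, with a median log2 fold change of 0.22, which was -0.045 without BBR mouse 3. The shares of all tested genes that passed were 3.82% as higher and 5.04% as lower. Krt7, a keratin of simple epithelia, was at 41.7 ± 1.21 FPKM under BBR and 26.7 ± 1.64 FPKM under SASP (SD, n = 3 each), a change of 0.63 (limma adjusted p = 0.0166) that lost its call without any 1 of BBR mice 1 and 2 and SASP mice 1 and 3, and with the smooth muscle covariate, where it was 0.69. Ly6a, chosen after its values were seen, is a repair marker that interferons also induce. It was at 376, 281 and 1210 FPKM under BBR and at 2988, 1678 and 2148 FPKM under SASP, with no overlap and a change of -2.13 that did not pass the threshold with 6 mice (limma adjusted p = 0.0541) and passed without BBR mouse 3 (limma adjusted p = 0.00204).

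Of 6 genes of slowly cycling or reserve stem cells, 4 were tested and 0 passed in limma, with a median of -0.33. Bmi1 was at 6.12 to 8.19 FPKM under BBR and 6.52 to 8.31 FPKM under SASP, with overlapping groups. Hopx was at 14.2, 15.1 and 5.63 FPKM under BBR and at 15.9, 17 and 18.8 FPKM under SASP, lowest in BBR mouse 3, as Lgr5, Ascl2 and Axin2 were (limma adjusted p = 0.227). Of 8 genes of mature colonocytes 0 passed in limma, with a median of 0.25, and of 10 leukocyte genes 7 were tested and 0 passed, with a median of -0.46.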
